A study of Mus musculus with 3 samples.

Results

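Polycomb repressive complex 2 (PRC2) is the enzyme complex that places methyl groups on lysine 27 of histone H3 (H3K27), a mark of silenced developmental genes. Its core holds a catalytic subunit, Ezh2 or Ezh1, the scaffold Suz12, the reader Eed, which binds the methylated histone and stimulates the enzyme, and the histone-binding proteins Rbbp4 and Rbbp7. Accessory subunits guide the core to chromatin: the Polycomb-like proteins Phf1, Mtf2 and Phf19 form one class of complex, and Jarid2 marks another. In embryonic stem (ES) cells PRC2 is known for keeping regulators of differentiation silent, and mouse ES cells lacking a core subunit can still self-renew but differentiate abnormally.

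The members were these 10 genes, taken by matching the gene name listed for each array probe to the symbol or an older synonym. They had 19 of the 41174 gene probes, of which 18 could be tested, and all 10 genes were among the 19488 genes tested. RNA of mouse ES cells, grown with fetal serum and leukemia inhibitory factor, was labelled with Cy3 (green). RNA of mouse embryonic fibroblasts (MEF), grown in serum medium for which that factor is not listed, was labelled with Cy5 (red). The sample labels name the Cy5 RNA as MEF, while the design text at one point calls it mix2; the sample labels were followed, and what mix2 stands for was not settled. Both were untreated, and each of 3 two-colour Agilent arrays carried 1 ES cell replicate and the MEF RNA. Strain, line, passage and embryo stage were not given in the sources used here. Dyes were not swapped, so a dye bias of a probe and a difference between the cells cannot be told apart. The MEF RNA counts as 1 control. The labels do not say whether the ES cell RNAs are of different cultures, so a p-value here reflects only how far these 3 arrays scatter, and that scatter may be technical.

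The share of gene spots that stood well above background was 68.6% to 70.6% per array for ES cells and 68.2% to 74.0% for MEF. The median spread of a gene over the arrays was a log2 SD of 0.028. All 10 ES cell markers were higher in ES cells, with log2 ratios of 2.85 to 6.33, among them Nanog at 4.02 and Pou5f1 at 3.75. All 11 fibroblast markers were lower, from -8.10 to -2.52, with Col1a1 at -8.10. All 7 macrophage markers were also lower in ES cells, from -6.18 to -2.73, with Csf1r at -5.69. Their summed normalised signal was 9672 to 10131 in ES cells and 466062 to 501452 in MEF, so the RNA labelled MEF also held macrophage transcripts, and their part in the ratios of the PRC2 genes was not tested. Of 4 endothelial markers tested, 2 were higher and 2 lower. In bulk RNA, fewer cells of a type and less RNA per cell cannot be told apart.

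The following probe sequences, as the deposited files give them, show what was measured for 4 core subunits and Mtf2, and all their bases hybridise, hence the capitals. For Ezh2 and Eed they are the genes' single probes, for Mtf2 they include the brightest, which stands for the gene, and for Suz12 and Rbbp4 they are dimmer probes that do not. Coordinates are of mouse build mm7, as in the files. The Ezh2 probe lies at chr6:47568744-47569639 on the minus strand and the Eed probe at chr7:85913246-85916155 on the minus strand. The Suz12 probe shown lies at chr11:80095051-80095110 on the plus strand, and the Mtf2 probes shown lie on the plus strand at chr5:107258308-107258480, chr5:107270744-107271524 and chr5:107276490-107278175. The Rbbp4 probe shown lies at chr4:128767354-128767413 on the minus strand.
Ezh2: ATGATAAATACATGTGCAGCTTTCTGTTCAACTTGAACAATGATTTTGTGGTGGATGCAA
Eed: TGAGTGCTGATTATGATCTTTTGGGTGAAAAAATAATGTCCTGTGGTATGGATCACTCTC
Suz12: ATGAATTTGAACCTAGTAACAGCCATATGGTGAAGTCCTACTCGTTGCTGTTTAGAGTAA
Mtf2, probe at 107258308: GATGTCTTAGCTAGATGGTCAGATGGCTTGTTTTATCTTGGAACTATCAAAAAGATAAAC
Mtf2, probe at 107270744: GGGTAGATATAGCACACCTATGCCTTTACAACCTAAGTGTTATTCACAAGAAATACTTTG
Mtf2, probe at 107276490: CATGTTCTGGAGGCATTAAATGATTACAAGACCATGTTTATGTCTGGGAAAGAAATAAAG
Rbbp4: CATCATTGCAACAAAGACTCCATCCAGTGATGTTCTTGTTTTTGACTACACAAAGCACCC
The listed span is longer than the probe for 5 of the 19 probes, namely 896 bases for Ezh2, 2910 for Eed, and 173, 781 and 1686 for the 3 Mtf2 probes printed here, so these probes match stretches that are not contiguous in the genome. No annotation of mm7 was used, so exons and untranslated regions were not assigned. None of the 19 sequences was carried by another probe, and their GC content ran from 35% to 45%.

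PRC2 genes differed from one another in direction and size between ES cells and MEF. Ezh2, Suz12, Eed, Jarid2 and Mtf2 were higher in ES cells by 3.44-fold to 10.6-fold. Ezh1, Rbbp4, Rbbp7, Phf1 and Phf19 differed by less than 2-fold. The call asked for an adjusted p under 0.05 in limma's moderated test over all genes together with a difference of at least 2-fold. By that rule 5 of 10 members were higher, 0 were lower and 5 were not called. Among all genes tested, 20.4% were called higher and 22.4% lower, 42.8% in either direction. The median log2 ratio was 1.30 over the 10 members and -0.050 over all genes. The count of 0 lower refers to the call with the fold minimum, because limma gave an adjusted p under 0.05 for all 10 members and for 95.4% of all genes, and by that p alone 8 members were higher and 2 lower. The fold minimum therefore sets which members are called. Of the 2 lower by p alone, Phf19 changed sign between processing settings.

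**Figure D1:**
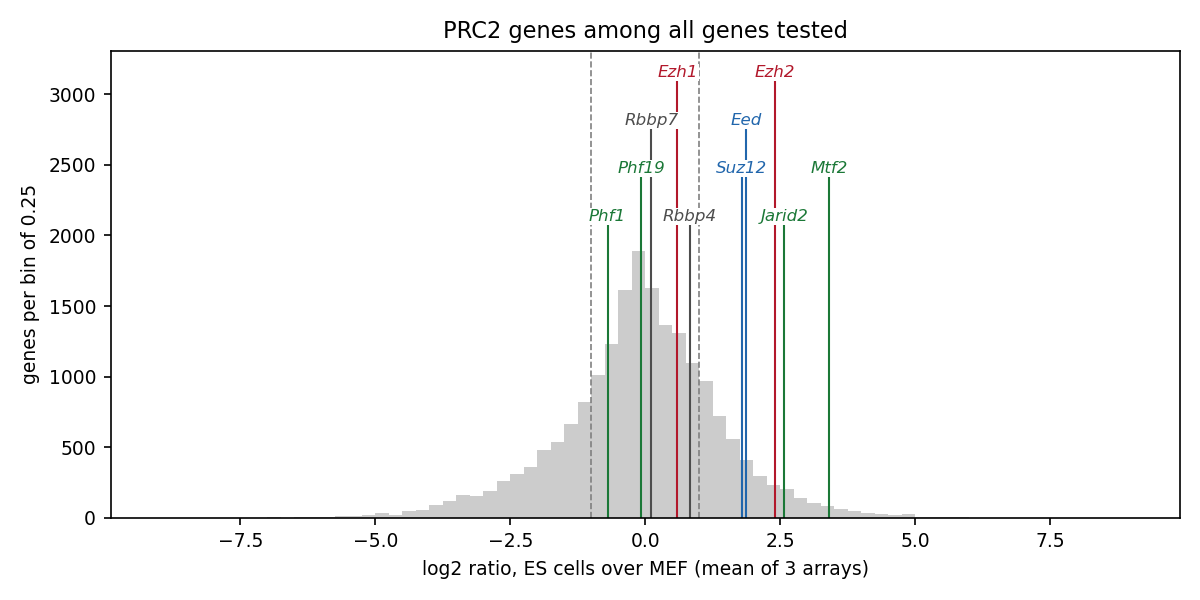
Histogram of the log2 ratio of ES cells over MEF (x axis) for the 19488 genes tested, in bins of 0.25 (y axis, genes per bin), with a line at each of the 10 PRC2 genes, coloured by subunit role, and dashed lines at the 2-fold minimum. Mtf2, Jarid2, Ezh2, Eed and Suz12 lie in the right flank, between 1.78 and 3.41, and the other 5 genes lie between -0.70 and 0.82.

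Ezh2, the catalytic subunit typical of dividing and early embryonic cells, had spot signals of 26787, 26700 and 26346 in ES cells and 4451, 4473 and 4361 in MEF on arrays 1, 2 and 3. The channels did not overlap and the ES cell channel was the brighter on every array. Raw signals of the dyes did not overlap for any member at the probe that stands for it, called or not. The share of all genes for which this holds was not counted. After background correction and normalisation the log2 ratio was 2.40 ± 0.024 (SD, n = 3), a 5.28-fold higher level in ES cells (limma, adjusted p = 2.10e-07), and 95.5% of the genes tested had a lower ratio. Ezh1, the paralog that is more abundant in resting and adult cells, had signals of 929, 873 and 833 in ES cells and 539, 525 and 518 in MEF. It too was brighter in ES cells on every array, but its log2 ratio was 0.60 ± 0.033 (SD, n = 3), or 1.51-fold (limma, adjusted p = 1.13e-05), and it was not called. Its array values of 0.63, 0.59 and 0.57 all lay below the 3 values of Ezh2, which ran from 2.38 to 2.43.

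The difference between the ratios of both catalytic subunits, Ezh2 minus Ezh1, was 1.76, 1.79 and 1.86 on the arrays, with a mean of 1.80 ± 0.050 (SD, n = 3). The Ezh2 ratio was thus 3.49-fold the Ezh1 ratio, with the same sign on 3 of 3 arrays. An exact two-sided sign-flip permutation test gave p = 0.25, the smallest it can give with 3 arrays, and the adjusted p was 0.25 over the 4 pairs of paralogs compared. This is a comparison of ratios: the level of Ezh2 RNA was not set against that of Ezh1, since probes differ in how brightly they report.

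Suz12, the scaffold without which the core does not hold together, had signals of 30359.8, 31024 and 30625 in ES cells and 7796, 7785 and 7883 in MEF at its brighter probe. At its second probe the signals were 5009, 5117.5 and 4653 in ES cells and 1332, 1340.1 and 1338 in MEF. Both probes separated the cells on every array. The brighter probe gave 1.78 ± 0.014 and the other, whose sequence is printed above, gave 1.70 ± 0.057 (log2 ratio, SD, n = 3), so probes some distance apart in the gene gave nearly the same ratio. Suz12 was 3.44-fold higher in ES cells (limma, adjusted p = 2.53e-07).

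Eed, the subunit that reads the mark, had signals of 37850.2, 37473 and 36345 in ES cells and 9063, 8948 and 8828 in MEF. The channels did not overlap. Its log2 ratio was 1.87 on each array, with a SD of 0.0035 (n = 3), and it was 3.66-fold higher in ES cells (limma, adjusted p = 2.05e-07). Suz12 and Eed thus differed from MEF by similar factors, both smaller than that of Ezh2, and 91.5% and 92.2% of the genes tested had a lower ratio than Suz12 and Eed.

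The histone-binding subunits are shared with other chromatin complexes, among them the NuRD and Sin3 histone deacetylase complexes, and neither was called. Rbbp4 had signals of 41925, 41145 and 40687 in ES cells and 20930, 21171 and 20669.5 in MEF at its brightest probe. These do not overlap, and the log2 ratio was 0.82 ± 0.033 (SD, n = 3), or 1.77-fold (limma, adjusted p = 4.03e-06). Rbbp7, whose gene lies on the X chromosome, had signals of 67210.1, 67049.9 and 66928 in ES cells and 59089.7, 58173 and 60454.5 in MEF. Its log2 ratio was 0.11 ± 0.013 (SD, n = 3), or 1.08-fold (limma, adjusted p = 0.00123), the ratio nearest to 0 among the core subunits.

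Rbbp4 was read by 4 probes, all with ratios above 0 and none past the 2-fold minimum. Along the minus strand the probe at chr4:128767354-128767413 gave 0.70 ± 0.031, the brightest, at chr4:128754337-128754396, gave 0.82 ± 0.033, and that at chr4:128752026-128752085 gave 0.29 ± 0.030 (log2 ratio, SD, n = 3). The last of these was the dimmest in ES cells, with signals of 1166, 1113 and 1186 in ES cells and 849, 833 and 871 in MEF. The probe at chr4:128754253-128754312 gave 0.72 ± 0.033 and is the 1 member probe of 19 listed on the strand opposite to its gene, so its reading is uncertain. The mean of the 4 probes was 0.63, against 0.82 at the brightest. Rbbp7 minus Rbbp4 was -0.71 ± 0.036 at the brightest probes (SD, n = 3), negative on 3 of 3 arrays, with an exact sign-flip permutation p of 0.25. Over the 4 Rbbp4 probes this difference ran from -0.71 to -0.18, so its size depended on the Rbbp4 probe and its sign did not.

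**Figure D2:**
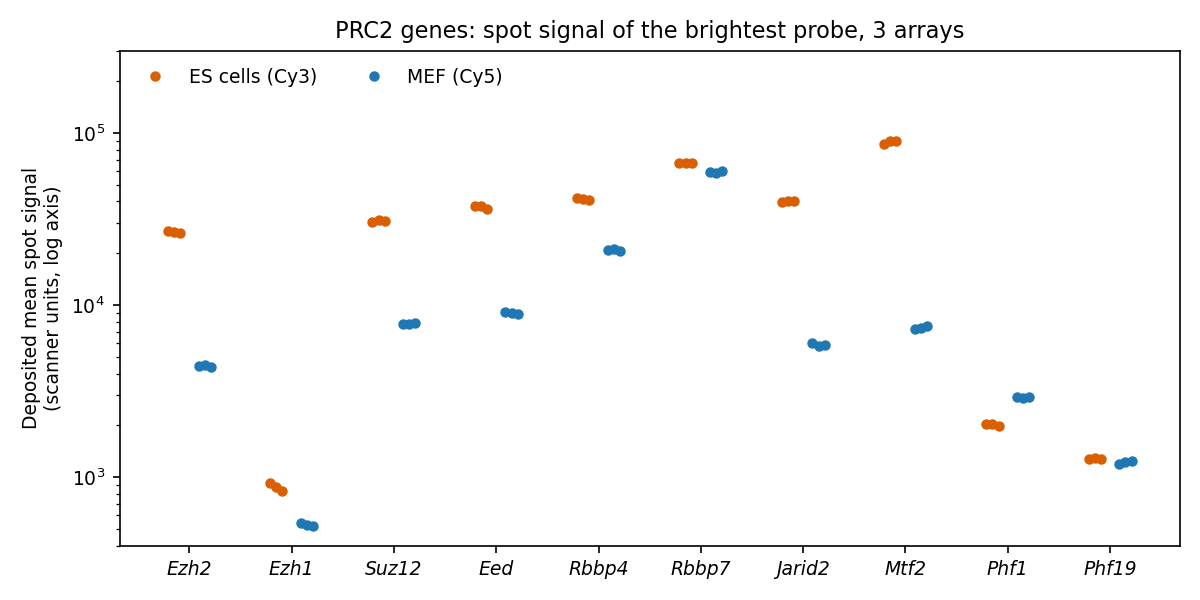
Deposited mean spot signal in scanner units (y axis, log scale) at the probe that stands for each PRC2 gene (x axis), 1 point per array, ES cells in orange left of MEF in blue. The ES cell points lie well above the MEF points for Ezh2, Suz12, Eed, Jarid2 and Mtf2, close to them for Rbbp7 and Phf19, and below them for Phf1; heights of different genes are not comparable.

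The accessory subunits spread widest. Mtf2, a Polycomb-like protein that binds unmethylated CpG-rich DNA and is known as an accessory subunit abundant in mouse ES cells, had signals of 85766, 89152 and 89697 in ES cells and 7224, 7360 and 7508 in MEF at its brightest probe. The channels did not overlap. Its log2 ratio was 3.41 ± 0.016 (SD, n = 3), a 10.6-fold higher level in ES cells (limma, adjusted p = 1.62e-07). It ranked 280th of the 19488 genes tested by ratio, and 98.6% had a lower one.

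All 4 Mtf2 probes were called higher in ES cells. In the order of their coordinates on the plus strand, from chr5:107258308 on, they gave log2 ratios of 3.12 ± 0.014, 3.41 ± 0.016, 2.75 ± 0.011 and 3.77 ± 0.14 (SD, n = 3). The first 3 are the probes whose sequences are printed above, and the fourth lies at chr5:107286243-107286302. The fourth probe was the most variable of all member probes, with signals of 32981, 40314.5 and 38018 in ES cells and 2377, 2454 and 2346 in MEF. The probes spread over 1.02 on the log2 scale, many times the SD between arrays, with a mean of 3.26, so the fold difference of Mtf2 depends on the probe while its call does not.

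Jarid2, a DNA-binding protein of the Jumonji family without demethylase activity that recruits PRC2, had signals of 39425, 40116 and 40026 in ES cells and 5977, 5779.6 and 5848 in MEF at the probe at chr13:44370473-44370532. Its log2 ratio there was 2.58 ± 0.042 (SD, n = 3), or 5.96-fold higher in ES cells (limma, adjusted p = 3.08e-07). At chr13:44369631-44369690 the signals were 7019, 6886 and 7017 in ES cells and 715, 673 and 709.8 in MEF, with a log2 ratio of 3.13 ± 0.042. Neither probe had overlapping channels, and both were called. The remaining Jarid2 probe, at chr13:44334556-44334615, had signals of 126, 122 and 118 in ES cells and 67.6, 72.6 and 72.1 in MEF, did not stand well above background on all 3 arrays in either channel and was not tested.

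Phf1, a Polycomb-like protein that binds methylated lysine 36 of histone H3 through its Tudor domain, was the 1 member with a ratio below 0 under all settings tried. Its signals were 2026, 2036 and 1985 in ES cells and 2929.7, 2865 and 2928 in MEF, with MEF the brighter on every array. The log2 ratio was -0.70 ± 0.018 (SD, n = 3), a 1.62-fold lower level in ES cells (limma, adjusted p = 3.01e-06), short of the 2-fold minimum. Phf19, the remaining Polycomb-like protein, had signals of 1275, 1289 and 1280.4 in ES cells and 1197, 1222 and 1239 in MEF. These are slightly higher in ES cells, while the normalised log2 ratio was -0.077 ± 0.013 (SD, n = 3; limma, adjusted p = 0.00452), so its sign came from the normalisation and turned to 0.060 with the scanner software's processed signals and to 0.15 with median centring. No direction is given for Phf19.

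The ratio of Mtf2 was set against those of the other Polycomb-like paralogs. Mtf2 minus Phf1 was 4.10, 4.09 and 4.13 on the arrays, with a mean of 4.11 ± 0.020 (SD, n = 3), a 17.2-fold larger ratio for Mtf2. Mtf2 minus Phf19 was 3.46, 3.50 and 3.50, with a mean of 3.49 ± 0.026 (SD, n = 3), or 11.2-fold. With each of the 4 Mtf2 probes in turn these differences ran from 3.45 to 4.46 and from 2.82 to 3.84. Both were positive on 3 of 3 arrays, and the exact sign-flip permutation test gave its smallest possible p of 0.25 for each.

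**Figure D3:**
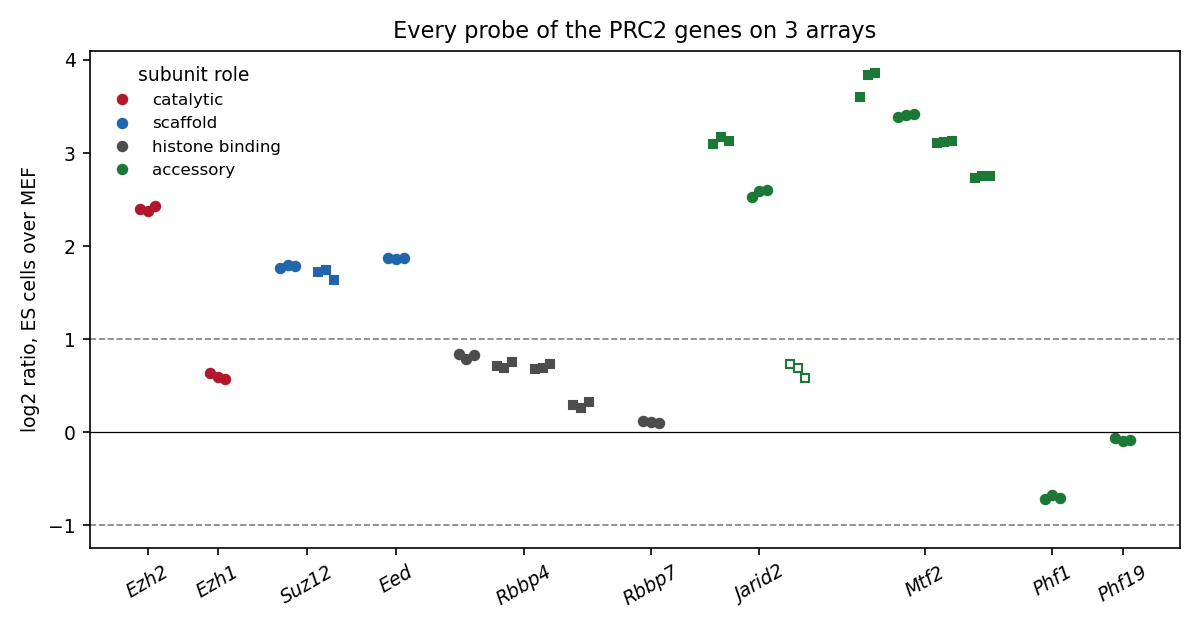
Log2 ratio of ES cells over MEF (y axis) of all 19 probes of the PRC2 genes (x axis), 3 points per probe for the 3 arrays, coloured by subunit role. Circles are the brightest probe, which stands for the gene, squares are other probes, open squares are the Jarid2 probe that was not tested, and dashed lines mark the 2-fold minimum. The 4 Mtf2 probes lie between 2.75 and 3.77 on average, the 4 Rbbp4 probes between 0.29 and 0.82.

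Counted by probe, 10 of the 18 tested probes were called higher, 0 lower and 8 were not called, against 19.9% of all 29500 tested probes called higher. The median log2 ratio was 1.74 over the member probes and -0.023 over all probes. The probes of a gene are not independent readings of the cells, and Mtf2 and Rbbp4 hold 4 probes each. For each of Suz12, Mtf2, Jarid2 and Rbbp4, the genes with more than 1 tested probe, all tested probes had the same sign and the same call. At the brightest probe of each of the 10 genes, ES cell and MEF signals were well above background on every array, and none was saturated.

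Proliferation genes, which are known to move with Ezh2 in many cell types through E2F transcription factors, also differed in these arrays. Of 20 tested, 17 were higher in ES cells, 0 lower and 3 not called in limma, with a median log2 ratio of 1.81. Over all genes tested, 20.4% were called higher and 22.4% lower. The mitotic regulators Ccnb1 at 3.38 ± 0.023 and Bub1 at 3.21 ± 0.012 were the highest, and E2f2 at 1.40 and Plk1 at 1.03 the lowest of those called. E2f1 at 0.16 and E2f3 at -0.34 were not called, and another E2f3 probe gave 0.32. Mki67, the proliferation antigen, was at 1.00 ± 0.039, just under the fold minimum, and its other probe gave 1.20. Some genes called higher had other probes under that minimum, down to 0.28. The summed normalised signal of the 20 genes was 1.28e+06 to 1.31e+06 in ES cells and 342061 to 343634 in MEF. The part of proliferation in the PRC2 ratios was not tested.

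Promoter windows of RefSeq, on build GRCm38.p6, covered 250 bases before to 50 bases after each gene's start. There were 12 windows for the 10 members, Mtf2 and Jarid2 having 2 each, and 32851 in all. Letters were searched on both strands, with positions counted from 1 at the start site and from -1 just before it. An E2F match (TTTGGCGC, TTTCCCGC, TTTCGCGC or TTTGCCGC) was found in 3 of 12 member windows and in 2.26% of all windows. The members with it were Ezh2 at 4 and Suz12 at -219, both higher in ES cells, and Phf19 at -208 on the other strand, which was not called. The CCAAT box (CCAAT) was in 66.7% of member windows and 37.4% of all, in all 5 members called higher and in 2 of the 5 not called. For Mtf2 only the window further downstream held it. Mtf2 and Jarid2, both called higher, have 2 windows each and so more bases to match than the other members. The GC box (GGGCGG) was in 66.7% of member windows and 35.7% of all, in 3 of the 5 called higher and 4 of the 5 not called. Member windows had a median GC content of 64.3%, against 52.7% over all windows, and a median CpG count of 27, against 7. Each E2F string searched holds a CG. Member windows thus differ from the rest in base composition, and its part in these shares was not tested. A match of letters is a description of the sequence, not a binding site.

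The windows of both core genes with an E2F match are shown from 250 bases before to 15 bases after the start, with E2F and CCAAT matches on either strand in capitals (ATTGG is CCAAT on the other strand). The Ezh2 stretch is chr6:47595016-47595280 on the minus strand, and the Suz12 stretch is chr11:79992856-79993120 on the plus strand.
Ezh2 promoter: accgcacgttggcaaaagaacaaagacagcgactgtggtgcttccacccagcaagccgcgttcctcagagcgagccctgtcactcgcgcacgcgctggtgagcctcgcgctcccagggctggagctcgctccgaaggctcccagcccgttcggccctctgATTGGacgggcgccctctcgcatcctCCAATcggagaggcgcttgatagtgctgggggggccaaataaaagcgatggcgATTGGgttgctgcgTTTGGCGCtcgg
Suz12 promoter: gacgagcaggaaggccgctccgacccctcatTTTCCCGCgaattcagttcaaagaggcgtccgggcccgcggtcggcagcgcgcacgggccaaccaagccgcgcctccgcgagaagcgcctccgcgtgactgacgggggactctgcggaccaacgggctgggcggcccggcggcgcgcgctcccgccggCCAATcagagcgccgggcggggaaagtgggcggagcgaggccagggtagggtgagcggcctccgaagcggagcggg
In the Ezh2 stretch the E2F match begins just past the start and 3 CCAAT matches precede it, while in the Suz12 stretch the E2F match is far upstream of a single CCAAT match.

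Of the 4 other accessory genes of PRC2 tested, 1 was higher in ES cells and 3 were not called. This count is near the share over all genes tested, of which 20.4% were called higher and 22.4% lower. Epop, which links PRC2 to elongin, was higher at 2.77 ± 0.017 (limma, adjusted p = 1.74e-07), a ratio between those of Jarid2 and Mtf2 at their brightest probes. That order depends on the probe, since another Jarid2 probe gave 3.13. Aebp2, the zinc-finger partner of Jarid2 in its class of complex, was at 0.21 ± 0.00095. Lcorl at -0.22 ± 0.019 and Lcor at -0.53 ± 0.055, whose genes also encode PRC2-binding proteins, were not called. Lcorl probes ran from -0.49 to 0.30, so its sign depended on the probe, and another Lcor probe gave -0.037. The H3K27 demethylase family, named for enzymes that remove the mark, had 3 genes tested and 1 called, against 42.8% of all genes called in either direction. Kdm6b was lower in ES cells at -1.31 ± 0.026 (limma, adjusted p = 7.30e-07). Kdm6a at 0.86 ± 0.026 and Uty at 0.27 ± 0.087, its Y-linked paralog, were not called.

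PRC1, the ubiquitin ligase complex that acts beside PRC2, had 22 genes tested, of which 5 were higher, 6 lower and 11 not called, with a median log2 ratio of 0.22. These PRC1 counts are near the shares over all genes tested, 20.4% higher and 22.4% lower. Cbx7, the chromobox subunit known for ES cells, was the highest at 4.09 ± 0.10, followed by Scml2 at 3.60 ± 0.031. Phc2, a Polyhomeotic subunit, was lower in ES cells at -2.62 ± 0.019. Of 14 trithorax and MLL genes, which oppose Polycomb, 5 were higher and 2 lower, with a median of 0.38. Dpy30 and Wdr5, shared subunits of the MLL methyltransferases, were both at 2.09, while Ash1l at -1.16 and Men1 at -1.10 were the lowest. Ash1l probes ran from -1.46 to -0.77, so its call depended on the probe. Of 23 genes of other complexes that use Rbbp4 and Rbbp7, 8 were higher and 2 lower, with a median of 0.66. The histone acetyltransferase Hat1 at 2.78 and the Sin3 subunit Sap30 at 2.45 were the highest of these. Chd3 at -3.77 and Mbd2 at -1.73, both of NuRD, were the lowest, and another Mbd2 probe gave -0.19.

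Developmental regulators often found under PRC2 in ES cells were mostly lower. Of 34 listed, 29 were tested, 3 were higher, 17 lower and 9 not called, with a median of -1.93. In ES cells 3 of those tested were not well above background on any array, and all 3 were called lower. In MEF 3 others were not, Eomes among them. These genes passed the filter through the other channel only, so it fixed their direction, and the list was not counted without them. The shares over all genes tested were 20.4% higher and 22.4% lower. The Hox genes Hoxa10 at -4.00 ± 0.078 and Hoxc6 at -3.90 ± 0.023 were the lowest. Eomes was at least 4.65-fold higher in ES cells, since it was not well above background in MEF (the bound sets the ES cell mean against the higher of its own MEF signal and the lowest signal above background, per array). Pax6 was at 1.60 ± 0.38 at its brighter probe and 0.078 at the other. Olig2, Nkx2-2, Neurog2, Cdx2 and Isl1 did not pass the filter on dim probes. The arrays did not measure the histone mark.

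**Figure D4:**
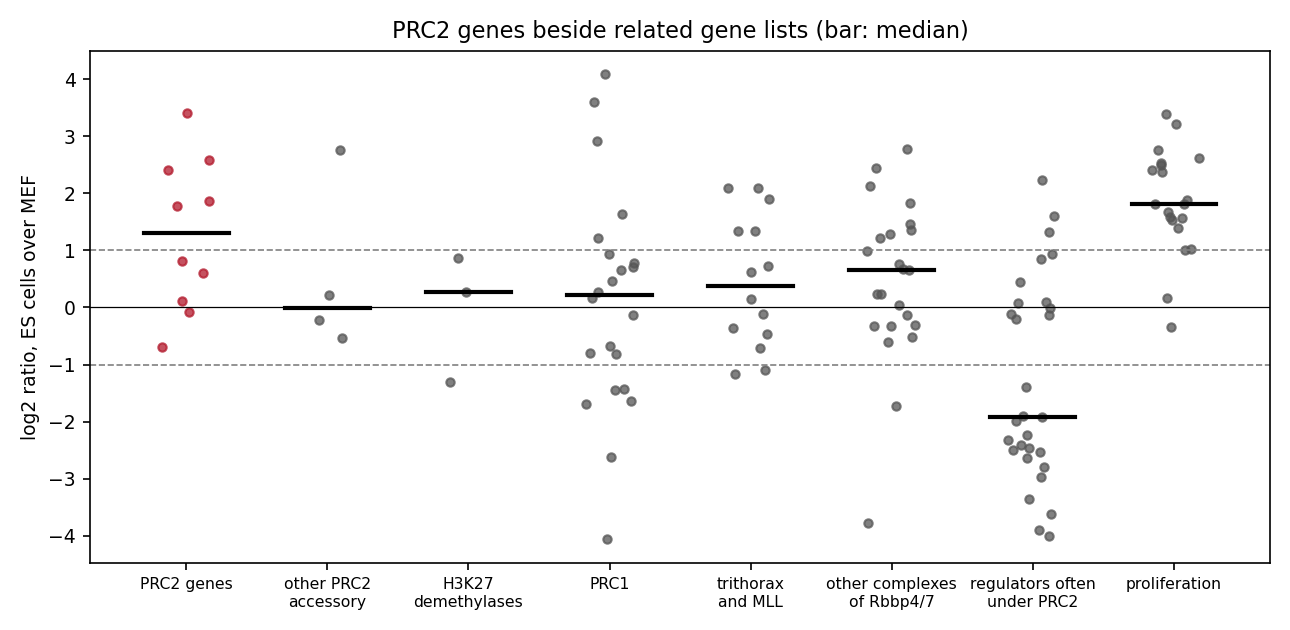
Log2 ratio of ES cells over MEF (y axis), 1 point per tested gene, for the PRC2 genes and 7 related gene lists (x axis), with the median as a bar and dashed lines at the 2-fold minimum. The PRC2 median of 1.30 lies below that of the proliferation genes, 1.81, and above those of the other 6 lists; the highest point among the regulators, Eomes, is a fitted value with MEF not well above background.

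**Figure D5:**
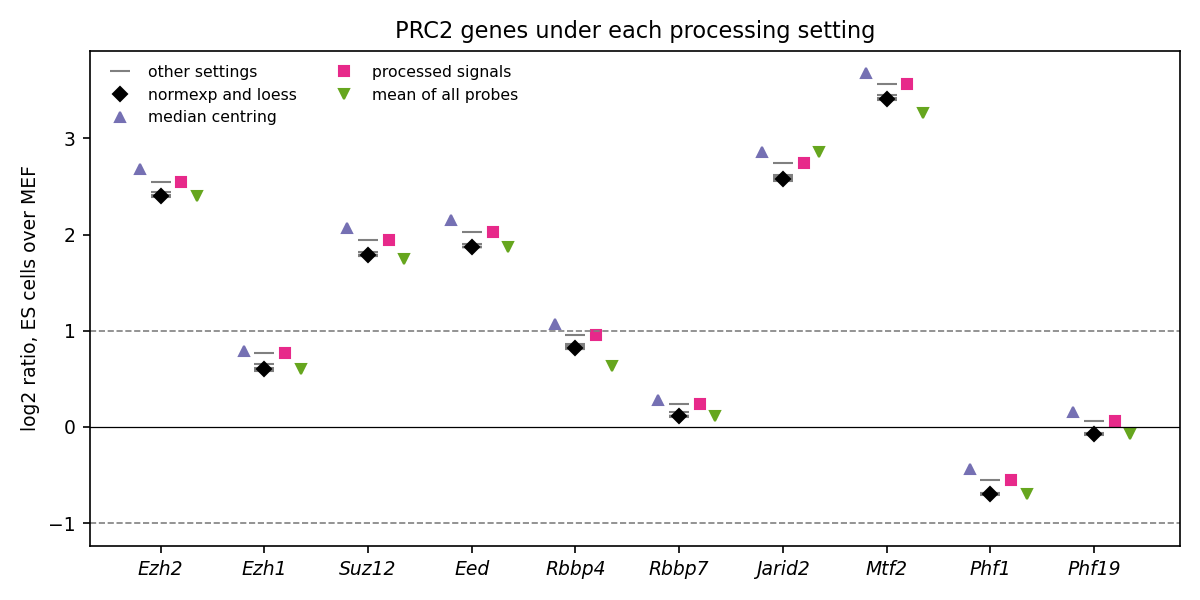
Log2 ratio of ES cells over MEF (y axis) of each PRC2 gene (x axis) with normexp and loess (black), with median centring, with processed signals, with the mean of all probes and under the other settings (grey dashes). Median centring gave the highest value for every gene, and the sign differed between settings for Phf19 alone.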

How the data were processed

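Both channels of 3 arrays on 1 slide were read. Per the file headers, the authors used Agilent Feature Extraction 9.5.3.1, and the deposited intensities are mean spot and median local background brightness in scanner units, with coordinates of mm7. The same headers give the deposited processed intensities as background-subtracted and dye-normalised, and the log10 ratio the authors deposited is of these, MEF over ES cells. A log2 value table deposited by the authors lay within 0.01 of the sign-turned scanner ratio for 85.4% to 87.8% of probes; the column medians of 0.213, 0.0859 and -0.143 show that it was not centred, and what was done to the other probes is unknown.

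Intensities were corrected with normexp (offset 50) and normalised by loess within arrays in limma 3.58.1 under R 4.3.3, with ratios turned to ES cells over MEF. The offset shrinks ratios of dim probes. Outlier spots were left out (117 to 144 gene spots per array, 0 of them of PRC2 genes), and spots of a probe were averaged. A probe was tested where ES cells or MEF stood well above background on all 3 arrays, and the brightest probe stood for its gene. Genes of all lists were named through the RefSeq gene table by accession (22951 probes) or by symbol or gene number (10062), and 8161 probes kept the name in the file. The mean log2 ratio was tested with lmFit and eBayes, with Benjamini-Hochberg adjustment over 19488 genes or 29500 probes. The number of arrays limits the precision. Each array pairs both RNAs, so the ratio is already within an array. On simulated arrays for this comparison with 27521 probes run, all 50 probes at each true log2 ratio of -3, -1.5, 1.5 and 3 were called with the right sign, and 0 of 27321 unchanged probes. The simulation held no dye bias, far fewer changed probes than the real arrays and no true ratio near the 2-fold minimum. It therefore checks the code and the sign of the ratio, not the calls of genes near that minimum. The members and gene lists were chosen with earlier results of these data known. All members are named with every probe, and E2f1 and E2f3 are named beside E2f2. Of each list, called genes with the 2 highest and the 2 lowest ratios are named, lists of 4 or fewer in full, and of the markers Pou5f1, Nanog, Col1a1, Csf1r and Mki67. A gene that this rule takes in is not reported here. Alternatives changed the background correction, the normalisation, the probe filter, the choice of probe, the call rule and the arrays included.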

Additional observations from a re-analysis of the deposited data

How the results depend on the processing

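Ezh2, Suz12, Eed, Jarid2 and Mtf2 kept their call and sign under all 14 alternatives tried. Phf19 changed sign, to 0.15 with median centring, to 0.060 in the authors' value table and to 0.060 when the processed signals were used. Median centring moved the median of all genes to 0.11, against -0.050 after loess, a shift of 0.16, and the share of calls that were higher to 56.3%, against 47.6%. Under it Rbbp4 was called at 1.07, which is 0.96 above that median, against 0.87 after loess, and Phf19 was 0.041 above it, against -0.026. Without the fold minimum 18600 genes were called, against 8346, and so were Ezh1 at 0.60, Rbbp4 at 0.82, Rbbp7 at 0.11, Phf1 at -0.70 and Phf19 at -0.077, which makes 8 members and 16 probes higher and 2 members and 2 probes lower. With limma's treat (minimum log2 0.5) Ezh1 at 0.60, Rbbp4 at 0.82 and Phf1 at -0.70 passed as well. That made 7 members and 14 probes higher and 1 member and 1 probe lower, while 63.6% of all genes were called. Leaving out each array in turn changed no call of a member. The 4 paralog differences kept their sign under the 12 alternatives that apply to them, Rbbp7 minus Rbbp4 from -0.80 to -0.52. Without a dye swap no alternative bears on probe-specific dye bias.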
